A study of Mus musculus with 4 samples.

Results

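The cornified envelope is the protein shell that keratinocytes build beneath their plasma membrane as they die at the top of the epidermis. Precursor proteins such as loricrin and involucrin, the small proline-rich (SPRR) proteins and the late cornified envelope (LCE) proteins are joined to each other by transglutaminases, and most of their genes lie side by side in the epidermal differentiation complex. In mouse skin these genes mark the granular and cornified layers, and several SPRR genes are known to be induced when the epidermis is wounded or inflamed.

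The genes were chosen by name: every Lce and Sprr row of the table together with Lor, Ivl, Flg, Flg2, Rptn, Hrnr, Tgm1, Tgm3, Tgm5, Cdsn and Crct1. This gave 47 of 24441 genes, 21 of them Lce and 16 of them Sprr genes, and 46 of the 47 had at least 1 FPKM (fragments per kilobase of transcript, scaled to library depth) in at least 2 libraries. Flg was not analysed here. Sprr3 fell below that limit, at 0.0751 FPKM in WT 2 and 0 in the other libraries. Of the 47 genes, 43 lie on chromosome 3, where the 42 above the limit span 1.32 megabases of mm9 from 91884193 to 93203364. Tgm3 and Tgm5 lie on chromosome 2, Tgm1 on chromosome 14 and Cdsn on chromosome 17.

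RNA was sequenced from whole back skin of 2 GSDMD KO mice and 2 WT mice. All were labelled female C57BL/6, aged 8 weeks, and all had received subcutaneous bleomycin (BLM), which causes skin fibrosis, for 28 days, so skin without BLM was not compared. The knockout was made by injecting Cas9 mRNA and guide RNA into zygotes, so it was not limited to keratinocytes. Nothing in the labels says that libraries of a group came from separate litters or days. The p-values rest on the spread between the 2 libraries of each group, which limma moderates toward the spread of all genes tested. They measure no spread beyond these libraries.

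Gsdmd stood at 14.05 and 18.2 FPKM in the WT libraries and at 3.53 and 2.26 FPKM in the GSDMD KO libraries, so the groups did not overlap. The library KO 2 stood apart from the rest. It scored 75.4 on the first principal component, which held 74.15% of the variance, against 6.17 for KO 1 and -27.7 and -53.9 for the WT libraries. All 4 Y-linked genes examined were above 0 in KO 2, which is labelled female, with a sum of 1.78 FPKM, and at 0 in the other 3 libraries. Its summed markers of fibroblasts, macrophages, endothelium and adipocytes were lower than in every other library, for example 47.4 FPKM for 8 fibroblast genes against 227 to 501 FPKM. In whole skin, fewer cells of a type and less RNA per cell cannot be told apart. Most values below are therefore given library by library, and the main counts of cornified envelope genes also without KO 2 and without KO 1.

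The 2 GSDMD KO libraries lay on opposite sides of the WT libraries. KO 1 had the highest level in 37 of the 46 cornified envelope genes, whereas it was highest in 18.9% of all 13027 genes tested. KO 2 had the lowest level in 34 of the 46, and in 4336 of all 13027 genes tested. The order KO 1, WT 1, WT 2, KO 2 from high to low was found in 27 genes, against 4.19% of all genes tested. In 9 further genes KO 1 and WT 1 led in the same way and KO 2 came before WT 2. Summed over the 46 genes, the level was 7443 FPKM in WT 1, 4360 FPKM in WT 2, 13251 FPKM in KO 1 and 2918 FPKM in KO 2. This was 1.64% and 0.943% of all FPKM in the WT libraries, 2.95% in KO 1 and 0.647% in KO 2.

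**Figure D1:**
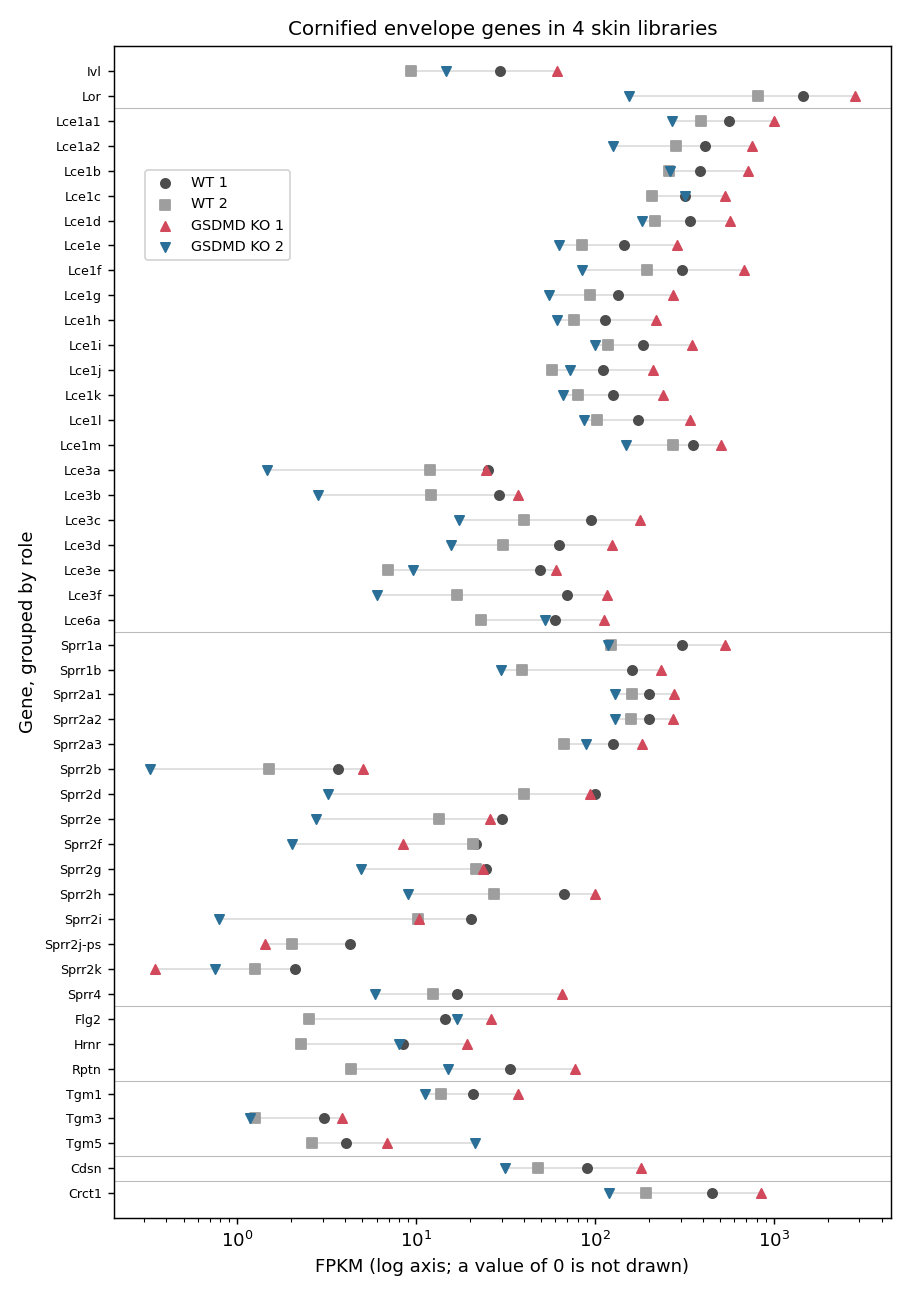
FPKM (log axis) of the 46 cornified envelope genes in the 2 WT and 2 GSDMD KO libraries, with 1 point per library, a grey line from the lowest to the highest value above 0, and genes grouped by role. KO 1 is the highest library in 37 genes and KO 2 the lowest in 34, and the 0 of Sprr2j-ps in KO 2 is not drawn.

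The WT libraries also differed. WT 1 was above WT 2 in all 46 genes, against 60.8% of all genes tested, and KO 1 was above KO 2 in 44 of 46, against 47.9%. In 42 of the 46 genes the larger gap between libraries of a group was wider than the difference between the group means, which held for 60.2% of all genes tested. On the log2(FPKM + 1) scale the median fold change of GSDMD KO over WT was 0.11 for the 46 genes, the same as the 0.11 of all genes tested, with 29 genes above 0 and 17 below. Compared singly with the WT mean, KO 1 had a median difference of 1.22 and KO 2 of -0.86, while the medians of all genes tested were 0.11 and 0.13.

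By limma with Benjamini-Hochberg adjustment, 0 of the 46 genes and 0 of all 13027 genes tested (0%) passed the study's threshold, which asks for an adjusted p under 0.05 together with a log2 fold change above 1 or below -1. The study used this threshold with DESeq2 on read counts and reported many chemokine genes as significantly lower in GSDMD KO mice. The tests are unlike, and DESeq2 could not be run on FPKM. At an unadjusted p under 0.05 there were 4 of the 46 genes and 2229 of all genes tested. With the limit on the fold change added, 1 gene was higher and 2 were lower in GSDMD KO mice, against 6.16% and 4.14% of all genes tested. Both GSDMD KO libraries lay above both WT libraries in 2 genes, Tgm5 and Flg2, against 35.3% of all genes tested. Both lay below in 3 genes, Sprr2f, Sprr2k and Sprr2j-ps, against 20.5%. These shares were all below those of the whole table except for the unadjusted lower calls, which at 2 of 46 were near it. With 2 libraries in each group, the smallest two-sided p of an exact permutation test is 0.333.

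**Figure D2:**
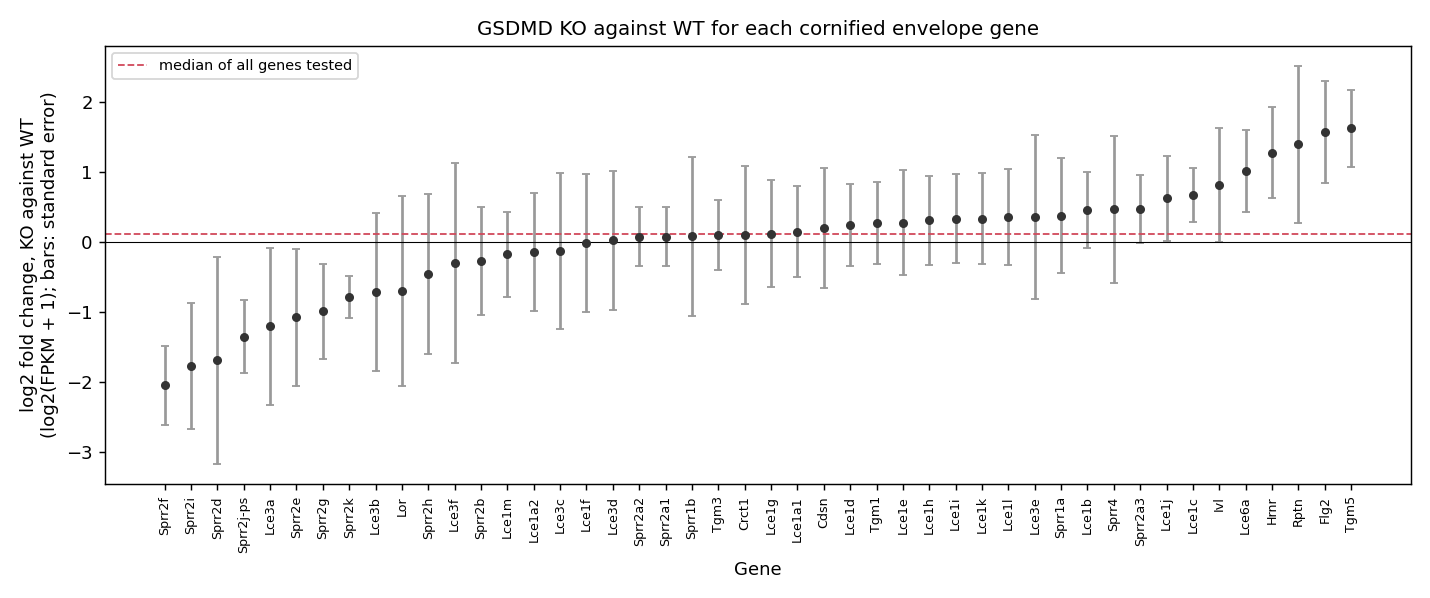
log2 fold change of GSDMD KO (n = 2) over WT (n = 2) on the log2(FPKM + 1) scale for each of the 46 genes, ordered by size, with bars for the standard error of limma and a dashed line at the median of all genes tested. Values run from -2.05 for Sprr2f to 1.63 for Tgm5.

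Loricrin, encoded by Lor, is the most abundant protein of the mature envelope. Lor had 1450 FPKM in WT 1, 809.6 FPKM in WT 2, 2844 FPKM in KO 1 and 155 FPKM in KO 2. KO 1 and KO 2 therefore lay on either side of the WT libraries and differed from each other 18.3-fold. Means and SDs were 1129.9 ± 453 FPKM for WT and 1499.6 ± 1901 FPKM for GSDMD KO (n = 2 each), giving a log2 fold change of -0.70 ± 1.36 (SE) with adjusted p = 0.792 in limma. Without KO 1 it passed the threshold with a log2 fold change of -2.80, and without KO 2 the value was 1.39 and did not pass. Lor made up 19.5%, 18.6% and 21.5% of the summed level in WT 1, WT 2 and KO 1, and 5.31% in KO 2. Involucrin, an early scaffold of the envelope, had a narrower range: Ivl had 29.4 and 9.30 FPKM in the WT libraries, 60.8 FPKM in KO 1 and 14.7 FPKM in KO 2, so KO 2 lay between the WT libraries.

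Of the 21 Lce genes, KO 1 was highest in 20 and KO 2 lowest in 16. The LCE proteins are small substrates of the transglutaminases that enter the envelope late. The 14 Lce1 genes moved closely together in KO 1, which had 1.61 to 2.74 times the WT mean. They spread more in KO 2, where the ratio ran from 0.339 in Lce1f to 1.20 in Lce1c. Lce1a1, the highest of them in every library but KO 2, where Lce1c led, had 562 and 389 FPKM in the WT libraries, 996 FPKM in KO 1 and 270.1 FPKM in KO 2. Lce1f had 304 and 194 FPKM in WT, 682 FPKM in KO 1 and 84.5 FPKM in KO 2, so that it was lowest in KO 2. Lce1c had 319 and 207 FPKM in WT, 532 FPKM in KO 1 and 316 FPKM in KO 2, which placed KO 2 inside the WT range.

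The other Lce1 genes repeated 1 of these layouts. Lce1a2 had 410.4 and 283 FPKM in WT, 751 FPKM in KO 1 and 126 FPKM in KO 2, lowest in KO 2 like Lce1f. Lce1d had 339.7 and 217 FPKM in WT, 565 FPKM in KO 1 and 183 FPKM in KO 2. In 2 further genes KO 2 came before WT 2. These were Lce1b, with 386 and 258 FPKM in WT, 718 FPKM in KO 1 and 261 FPKM in KO 2, and Lce1j, with 111 and 57.6 FPKM, 211 FPKM and 72.2 FPKM in the same libraries. In Lce1b, KO 2 and WT 2 were nearly level. In the genes from Lce1e to Lce1l other than Lce1j, KO 2 was again the lowest library. Lce1e had 146 and 84.5 FPKM in WT, 286 FPKM in KO 1 and 63.0 FPKM in KO 2. Lce1g had 134.9 and 93.7 FPKM in WT, 271 FPKM in KO 1 and 54.9 FPKM in KO 2. Lce1h had 114 and 75.9 FPKM in WT, 218 FPKM in KO 1 and 60.9 FPKM in KO 2. In all 3 the GSDMD KO libraries lay on either side of WT. Lce1i had 185 and 119 FPKM in WT, 349.7 FPKM in KO 1 and 99.8 FPKM in KO 2. Lce1k had 125 and 80.1 FPKM in WT, 240.5 FPKM in KO 1 and 66.5 FPKM in KO 2. Lce1l had 174 and 103 FPKM in WT, 337 FPKM in KO 1 and 87.2 FPKM in KO 2. Lce1m, which stands apart from the other Lce1 genes beside Crct1, had the smallest ratio of KO 1 to the WT mean among them, at 1.61. Its levels were 352 and 272 FPKM in WT, 502 FPKM in KO 1 and 149 FPKM in KO 2.

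The 6 Lce3 genes had lower levels than the Lce1 genes in every library. Lce3 genes are known for their induction when the skin barrier is broken. In KO 2 all 6 were at most 0.344 times the WT mean, and KO 1 exceeded KO 2 by 6.31-fold to 19.2-fold. Lce3f had 69.6 and 16.9 FPKM in WT, 116 FPKM in KO 1 and 6.05 FPKM in KO 2. Lce3b had 29.0 and 12.0 FPKM in WT, 37.2 FPKM in KO 1 and 2.82 FPKM in KO 2. In both, KO 2 was far below WT 2. Lce3c had 95.1 and 39.8 FPKM in WT, 177 FPKM in KO 1 and 17.4 FPKM in KO 2, and Lce3d had 62.5 and 30.7 FPKM, 124 FPKM and 15.5 FPKM. Lce3a, with 25.3 and 11.9 FPKM in WT, 24.7 FPKM in KO 1 and 1.47 FPKM in KO 2, was the Lce gene in which KO 1 did not exceed WT 1. Lce3e differed most between the WT libraries, with 48.9 FPKM in WT 1 and 6.92 FPKM in WT 2, and there KO 2 at 9.59 FPKM was not the lowest. Lce6a, a lone member of its group, had 59.9, 23.1, 112 and 52.2 FPKM in WT 1, WT 2, KO 1 and KO 2.

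The SPRR proteins are proline-rich cross-bridges between loricrin molecules. Sprr1a had 307 and 122 FPKM in WT, 533 FPKM in KO 1 and 118 FPKM in KO 2, and Sprr1b had 161 and 38.8 FPKM, 235 FPKM and 29.8 FPKM. Sprr4, which is known as a gene of stressed epidermis, had 16.8 and 12.4 FPKM in WT, 65.1 FPKM in KO 1 and 5.89 FPKM in KO 2. At 4.46 times the WT mean it was the gene with the highest ratio in KO 1 among the 46.

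Within Sprr2 the genes fell into 2 patterns, set apart here after their values were seen. Sprr2a1, Sprr2a2 and Sprr2a3 stayed within 0.718 to 0.922 times the WT mean in KO 2. The other 9 Sprr2 genes were at 0 to 0.445 times the WT mean there. Among those 9, KO 1 was the highest library only in Sprr2b and Sprr2h, whereas it was highest in 35 of the other 37 cornified envelope genes. Sprr2d, for example, had 99.6 and 40.2 FPKM in WT, 93.2 FPKM in KO 1 and 3.20 FPKM in KO 2, a 29.1-fold gap between the GSDMD KO libraries. Sprr2a1 had 201 and 159.8 FPKM in WT, 275 FPKM in KO 1 and 129.6 FPKM in KO 2. Sprr2a2 had 199 and 159 FPKM in WT, 274 FPKM in KO 1 and 129 FPKM in KO 2, and Sprr2a3 had 125 and 67.4 FPKM, 184 FPKM and 88.9 FPKM. KO 1 was thus the highest library in all 3 Sprr2a genes. The 9 others had log2 fold changes below 0, from -2.05 to -0.27. In Sprr2i, KO 1 at 10.3 FPKM stood level with WT 2 at 10.2 FPKM, and KO 2 had 0.793 FPKM. Sprr2e had 29.95 and 13.4 FPKM in WT, 25.8 FPKM in KO 1 and 2.75 FPKM in KO 2, so KO 1 lay between the WT libraries. The same held for Sprr2g, with 24.5 and 21.5 FPKM in WT, 23.5 FPKM in KO 1 and 4.89 FPKM in KO 2. In the 2 genes led by KO 1 the gap to KO 2 was wide as well. Sprr2b had 3.66 and 1.51 FPKM in WT, 5.05 FPKM in KO 1 and 0.323 FPKM in KO 2, and Sprr2h had 66.8 and 27.1 FPKM, 100.4 FPKM and 8.97 FPKM.

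Sprr2f was the gene in which the 2 WT libraries lay closest and both GSDMD KO libraries lay below them. It had 21.7 and 20.7 FPKM in WT, 8.46 FPKM in KO 1 and 2.03 FPKM in KO 2. The means were 21.2 ± 0.738 and 5.24 ± 4.55 FPKM (SD, both n = 2), giving a log2 fold change of -2.05 ± 0.56 (SE) with adjusted p = 0.248 in limma. Without KO 1 it passed the threshold, with a log2 fold change of -2.87, and without KO 2 the value was -1.23 and did not pass. Sprr2k and the pseudogene Sprr2j-ps also had non-overlapping groups, at low levels. Sprr2k had 2.11 and 1.26 FPKM in WT, against 0.346 and 0.748 FPKM in GSDMD KO mice, giving a log2 fold change of -0.79 ± 0.30 (SE) with adjusted p = 0.284 in limma. Sprr2j-ps had 4.24 and 2.03 FPKM in WT, 1.43 FPKM in KO 1 and was listed at 0 in KO 2, giving a log2 fold change of -1.35 ± 0.53 (SE) with adjusted p = 0.290 in limma. Without KO 1, Sprr2j-ps passed the threshold at -1.99, and without KO 2 it stood at -0.71 and did not pass. From the FPKM step that 1 fragment makes in low genes, these values stood for about 3.04 and 6.09 fragments of Sprr2k in KO 1 and KO 2, and about 13.3 and 0 of Sprr2j-ps, so their levels in GSDMD KO mice rest on few fragments. Sprr2b in KO 2 rested on about 2.89 fragments.

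Because the Sprr2 genes are close copies, their reads can be shared. The first 60 coding bases from the start codon are shown for 5 of them, with capitals where a base differs from Sprr2a1, to show how far the genes named above can be told apart.
Sprr2a1 (mm9, chr3:92023014-92023073, plus strand): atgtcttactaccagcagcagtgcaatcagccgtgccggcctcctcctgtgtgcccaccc
Sprr2a2 (mm9, chr3:92057827-92057886, plus strand): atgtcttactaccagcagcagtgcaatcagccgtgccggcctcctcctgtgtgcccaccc
Sprr2d (mm9, chr3:92144176-92144235, plus strand): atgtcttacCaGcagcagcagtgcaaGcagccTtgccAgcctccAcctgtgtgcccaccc
Sprr2f (mm9, chr3:92169818-92169877, plus strand): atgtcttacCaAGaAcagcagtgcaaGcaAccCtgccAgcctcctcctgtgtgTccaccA
Sprr2k (mm9, chr3:92237267-92237326, plus strand): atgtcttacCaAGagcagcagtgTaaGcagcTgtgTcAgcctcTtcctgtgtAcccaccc
Sprr2a1 and Sprr2a2 are identical over this stretch, Sprr2d differs at 6 bases, and Sprr2f and Sprr2k differ at 10 bases each. Over whole transcripts, 91.2% of the 150-base windows of Sprr2a1 and of Sprr2a2 occur in another gene, and their values, 201 and 199 FPKM in WT 1, cannot be told apart. The share was 6.46% for Sprr2a3, 15.2% for Lce3c and 12.8% for Lce3f, and 0 for the other 39 genes found in the mm9 transcript set. Lce1k, Lce3d and Lce3e were not matched.

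**Figure D3:**
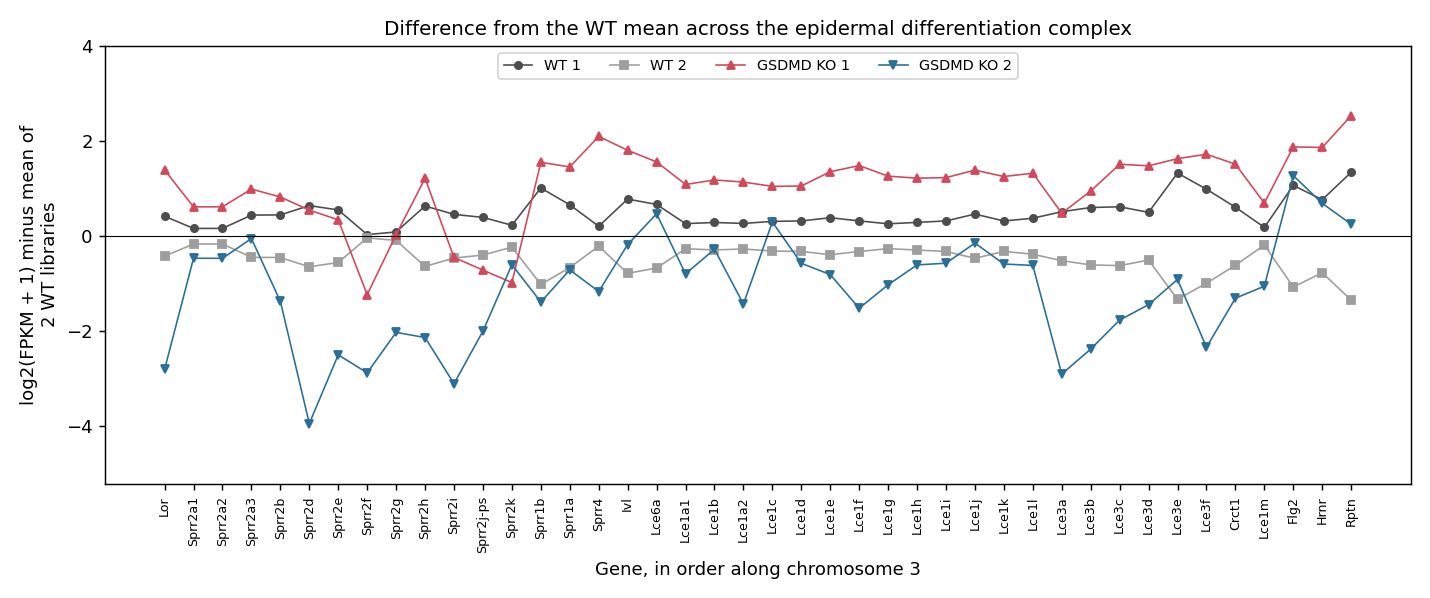
log2(FPKM + 1) minus the mean of the 2 WT libraries for the 42 genes on chromosome 3, in gene order, with 1 line per library. KO 2 lies far below 0 at Lor, in Sprr2d to Sprr2j-ps and at Lce3a, Lce3b and Lce3f, and near or above 0 at Sprr2a3, Lce6a, Lce1c, Flg2, Hrnr and Rptn among others.

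Along chromosome 3 the genes stand in blocks of a kind. Lor, at chr3:91884193-91887064 of mm9, is the first gene of the stretch, followed by Sprr2, Sprr1, Sprr4, Ivl, Lce6a, Lce1, Lce3, Crct1 and Lce1m, and then Flg2, Hrnr and Rptn. Neighbouring blocks differed in KO 2: the 3 Sprr2a genes had 0.718 to 0.922 times the WT mean, the 9 Sprr2 genes beside them at most 0.445 times, and the 6 Lce3 genes 0.079 to 0.344 times. KO 1 was at or above 1.33 times the WT mean in all Lce genes and at 0.206 to 2.14 times in the 9 Sprr2 genes.

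Flg2, Hrnr and Rptn encode large fused-type S100 proteins, which belong to the keratohyalin granules and the cornified matrix. KO 2 was the lowest library in 0 of the 3. Flg2 had 14.5 and 2.52 FPKM in WT, against 26.1 and 16.9 FPKM in GSDMD KO mice, so the groups did not overlap, and the log2 fold change being 1.58 ± 0.73 (SE) with adjusted p = 0.336 in limma. Without WT 1 the value was 2.64 and without WT 2 it was 0.51. The gap between the WT libraries, 5.74-fold, was wider than the gap between KO 2 and WT 1. Hrnr had 8.47 and 2.26 FPKM in WT, 19.3 FPKM in KO 1 and 7.97 FPKM in KO 2. Rptn had 33.4 and 4.34 FPKM in WT, 77.5 FPKM in KO 1 and 15.1 FPKM in KO 2. In both genes the GSDMD KO libraries stood on either side of WT 1, and WT 2 was lowest. These are long genes, with 3357 to 10236 coding bases, against 207 to 462 in the 15 Sprr genes tested and 246 to 549 in the Lce genes matched.

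Of the 3 transglutaminases, Tgm1 and Tgm3 had the order seen in most envelope genes and Tgm5 did not. Tgm1, the membrane-bound enzyme of the granular layer, had 20.6 and 13.7 FPKM in WT, 36.8 FPKM in KO 1 and 11.2 FPKM in KO 2. Tgm3, which also acts in the hair follicle, had 3.06 and 1.25 FPKM in WT, 3.82 FPKM in KO 1 and 1.18 FPKM in KO 2. Tgm5 was the only one of the 46 genes with its highest level in KO 2. It had 4.07 and 2.63 FPKM in WT, 6.82 FPKM in KO 1 and 21.4 FPKM in KO 2, giving a log2 fold change of 1.63 ± 0.55 (SE) with adjusted p = 0.264 in limma. Without KO 1 it passed the threshold, with a log2 fold change of 2.39, and without KO 2 the value was 0.87 and did not pass.

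Corneodesmosin, encoded by Cdsn, holds cornified cells together in corneodesmosomes. Cdsn had 89.6 and 48.0 FPKM in WT, 181 FPKM in KO 1 and 31.3 FPKM in KO 2. Crct1, a cysteine-rich gene of the complex, had 452 and 194 FPKM in WT, 847 FPKM in KO 1 and 119 FPKM in KO 2. Both had the order KO 1, WT 1, WT 2, KO 2.

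The stretch before the gene start was examined for letters that the genes share, since many of them varied together from library to library. RefSeq promoters of GRCm38.p6 were matched by symbol for 43 of the 47 genes (45 promoters). Sprr2g, Sprr2j-ps, Crct1 and Lce1f were not matched. TATAAA, the TATA box, stood on the gene's strand within 50 bases before the start in 37.8% of the 45 promoters, against 2.63% of all 32851 promoters of the table. TGANTCA, the AP-1 motif and its own reverse complement, stood within 250 bases in 28.9%, against 6.75%. It was present in 13 genes, among them Lor, Ivl, Rptn, Flg2, Sprr1a, Sprr1b and 7 Sprr2 genes, and in 0 Lce genes. AACCGGTT, a grainyhead motif, was found in 0 of the 45 promoters on either strand and in 0.116% of all, and CACCC on either strand in 42.2%, against 52.0%. The genes are copies of each other in part, so their promoters are not independent. The 250 bases before the start are given for Lor, for Sprr2d and Sprr2f as genes lowest in KO 2, and for Lce1a1 as the Lce gene with the highest level in 3 of the 4 libraries, with both motifs in capitals.
Lor promoter (GRCm38.p6, chr3:92083143-92083392, minus strand): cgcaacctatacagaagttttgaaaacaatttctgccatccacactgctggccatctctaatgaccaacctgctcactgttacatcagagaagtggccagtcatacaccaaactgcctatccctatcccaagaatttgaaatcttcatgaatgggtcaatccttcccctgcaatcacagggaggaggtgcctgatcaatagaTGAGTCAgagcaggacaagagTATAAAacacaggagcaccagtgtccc
Sprr2d promoter (GRCm38.p6, chr3:92338890-92339139, plus strand): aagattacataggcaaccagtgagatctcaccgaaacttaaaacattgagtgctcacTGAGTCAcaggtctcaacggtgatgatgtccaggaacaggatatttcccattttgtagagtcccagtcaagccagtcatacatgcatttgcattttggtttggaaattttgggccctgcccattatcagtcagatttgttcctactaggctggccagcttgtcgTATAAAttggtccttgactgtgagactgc
Sprr2f promoter (GRCm38.p6, chr3:92364937-92365186, plus strand): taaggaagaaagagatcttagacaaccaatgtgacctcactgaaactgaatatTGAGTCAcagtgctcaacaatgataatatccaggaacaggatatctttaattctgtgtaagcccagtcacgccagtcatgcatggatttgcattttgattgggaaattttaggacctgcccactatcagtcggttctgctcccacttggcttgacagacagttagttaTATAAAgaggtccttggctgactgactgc
Lce1a1 promoter (GRCm38.p6, chr3:92648308-92648557, minus strand): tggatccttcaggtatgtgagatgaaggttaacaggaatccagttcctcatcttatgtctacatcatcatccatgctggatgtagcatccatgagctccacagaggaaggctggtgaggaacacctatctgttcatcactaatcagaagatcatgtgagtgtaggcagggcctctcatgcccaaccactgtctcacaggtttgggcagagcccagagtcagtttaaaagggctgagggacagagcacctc
In Lor the TATA box begins 27 bases and the AP-1 motif 48 bases before the start. In Sprr2d and Sprr2f the TATA box begins 29 bases before the start and the AP-1 motif further away, at 193 and 197 bases. Neither motif is in the Lce1a1 stretch. A match is a description of the letters and says nothing of whether the site is used.

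Other genes of the epidermis were compared by lists. By limma with Benjamini-Hochberg adjustment, 0 genes of any list passed the threshold, and counts below are of genes in which both GSDMD KO libraries lay on the same side of both WT libraries. The shares of all genes tested to read them against are 35.3% above and 20.5% below. In the basal keratinocyte list all 10 genes lay above, with a median log2 fold change of 1.09. Krt14, the basal keratin, had 1293 and 1215 FPKM in WT, against 2689 and 2735 FPKM in GSDMD KO mice. Of the 10 genes, KO 2 was highest in 8 and KO 1 in 2, Krt5 and Itgb4. The 10-gene reference list for whole epidermis had 8 genes above, with a median of 1.46. Both lists hold Krt5, Krt14 and Trp63, so their counts are not separate. In the suprabasal list 3 of 9 genes lay above, about the share of all genes tested, with a median of 0.80. Krt10, a suprabasal keratin, had 745 and 364 FPKM in WT, 1670 FPKM in KO 1 and 266 FPKM in KO 2, the same order as Lor. That order held in only 3 of the 9 genes, and WT 2 was the lowest library in 6 of the 9.

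The ratio of Krt10 to Krt14 was 0.576 and 0.2998 in WT, 0.621 in KO 1 and 0.0973 in KO 2. The ratio of Lor to Krt10 was 1.95 and 2.22 in WT, 1.70 in KO 1 and 0.582 in KO 2, so Lor was low in KO 2 also beside this suprabasal keratin. Against the whole-epidermis list, the mean log2 level of the 46 genes was -0.64 and -0.90 in WT, -1.18 in KO 1 and -3.15 in KO 2. On that scale 27 of the 46 genes had both GSDMD KO libraries below both WT libraries, against 89.8% of all genes tested, a share below the background. Against the suprabasal list the means were -0.75 and -0.65 in WT, -1.11 in KO 1 and -1.88 in KO 2. Against the basal list they were 0.85 and -0.12 in WT, 0.56 in KO 1 and -1.85 in KO 2, and the groups overlapped.

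Of 20 other cornification genes tested, 10 lay above and 1 below, with a median of 0.86. In the other 9 the groups overlapped. Ppl, which encodes periplakin, was 1 of the 10 above, with 24.0 and 14.7 FPKM in WT, against 47.9 and 60.6 FPKM in GSDMD KO mice. Cnfn, which encodes cornifelin, was 1 of the 9, with 269 and 190.5 FPKM in WT, 666 FPKM in KO 1 and 106 FPKM in KO 2. Of 13 barrier lipid genes, 6 lay above and 0 below (median 0.68), and of 25 regulators of late differentiation, 13 lay above and 2 below (median 0.37), against the same 35.3% and 20.5% of all genes tested. Grhl3, a grainyhead factor, had 6.80 and 3.002 FPKM in WT, against 12.1 and 10.5 FPKM in GSDMD KO mice, so that it was not low in KO 2. Fos, a part of AP-1, had 16.5 and 28.7 FPKM in WT, against 8.23 and 10.4 FPKM in GSDMD KO mice. Fosl1, the other regulator below, had 1.62 and 1.17 FPKM in WT, against 0.998 and 0.660 FPKM in GSDMD KO mice. The groups overlapped in the other AP-1 genes of the list, Jun, Junb and Jund. Jund, for example, had 73.4 and 50.8 FPKM in WT, 95.3 FPKM in KO 1 and 55.5 FPKM in KO 2. Of 4 wound keratins 1 lay above (median 0.64). The peak in KO 1 was not particular to the cornified envelope genes. KO 1 was highest in 8 of 9 suprabasal genes, 10 of 13 barrier lipid genes and 13 of 20 other cornification genes tested. In the same order, WT 1 was above WT 2 in 9, 11 and 19 of these genes. Among the regulators KO 1 was highest in 12 of 25, and among all genes tested in 18.9%.

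**Figure D4:**
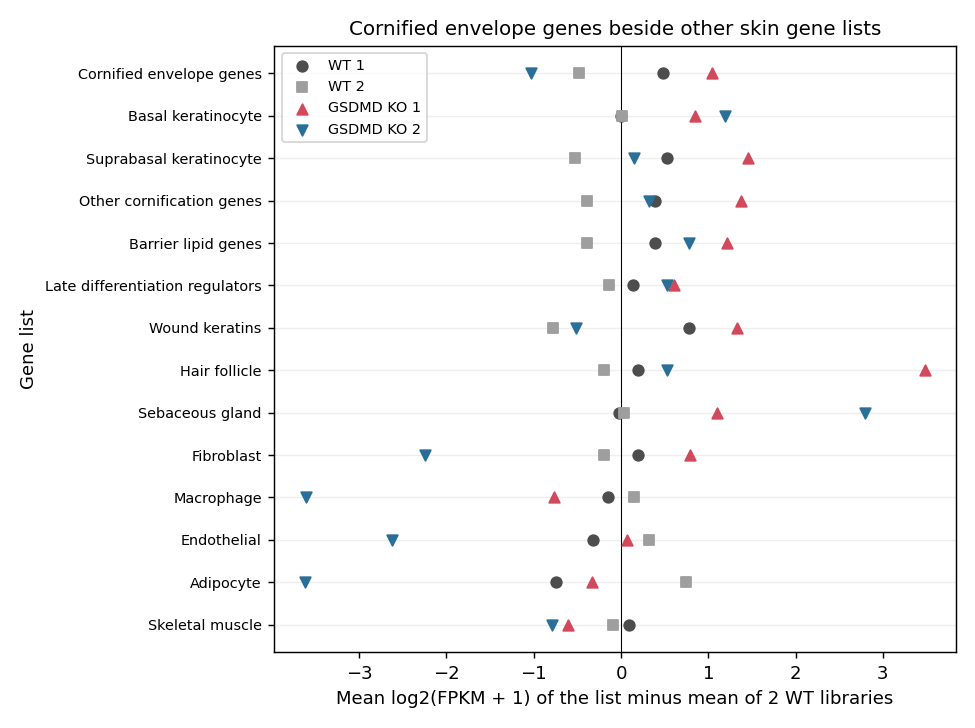
Mean log2(FPKM + 1) of each gene list in each library minus the mean of the 2 WT libraries, for the 46 cornified envelope genes and 13 other lists. KO 1 is the highest and KO 2 the lowest point for the cornified envelope genes, while both GSDMD KO points lie above both WT points for the basal keratinocyte list.

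Markers of other structures also differed between the libraries. The 20 hair follicle genes summed to 12.2 and 2.82 FPKM in WT, 425 FPKM in KO 1 and 26.2 FPKM in KO 2. KO 1 was the highest library in 19 of the 20, and 8 of the 20, among them Krt25, Krt27 and Krt35, were at 0 in WT 2. The 8 sebaceous genes summed to 599 to 1717 FPKM in WT, 632 FPKM in KO 1 and 2050.4 FPKM in KO 2, with 5 of 7 tested genes above (median 2.97). Scd1 made up most of each sum, with 564 and 1685 FPKM in WT, 474 FPKM in KO 1 and 1129 FPKM in KO 2. KO 2 was the highest library in 6 of the 7 genes, though not in Scd1. Of 9 hair follicle genes tested, 6 lay above (median 2.71). KO 2 was lowest in all 8 fibroblast genes, all 8 macrophage genes, all 6 endothelial genes and all 5 adipocyte genes, with medians of -0.82, -2.56, -1.21 and -1.99, and 0, 6, 0 and 1 of them lay below in both GSDMD KO libraries. The 6 skeletal muscle genes summed to 19615 to 20805 FPKM in WT and 12792 to 13020 FPKM in GSDMD KO mice (median -0.70, 4 below). Sebaceous genes were thus highest in KO 2, adipocyte genes in WT 2 (4798 FPKM in sum) and muscle genes in the WT libraries, unlike the cornified envelope genes, while hair follicle genes shared their peak in KO 1. The fibroblast genes followed the order most common among the cornified envelope genes: they summed to 315 FPKM in WT 1, 227 FPKM in WT 2, 501 FPKM in KO 1 and 47.4 FPKM in KO 2, and 6 of the 8 had the order KO 1, WT 1, WT 2, KO 2. The part of these cells and structures in the levels of the cornified envelope genes was not tested.

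Leaving out a GSDMD KO library turned the picture. Without KO 2, 42 of the 46 genes had log2 fold changes above 0, the median was 1.22 and 38 genes lay above both WT libraries, against 46.5% of all genes tested. Without KO 1, 40 of the 46 lay below 0, the median was -0.86 and 35 genes lay below both WT libraries, against 37% of all genes tested. By limma with Benjamini-Hochberg adjustment, 0 of the 46 genes passed the threshold without KO 2 and 14 passed without KO 1, among 43 (0.33%) and 2058 (15.8%) of all genes tested. In these fits the lone library is assumed to vary like the WT group.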

How the data were processed

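Whole-skin RNA of 2 WT and 2 GSDMD KO mice was analysed. The submitters' processing notes name mm9, HISAT2 2.0.1 and StringTie 2.0.6, and the paper also names featureCounts and DESeq2. The deposited values were FPKM although the table is named as counts, since 99.993% of the values above 0 are not whole, which means that the authors' scaling by length and depth is part of each value, and count tests could not be applied. FPKM of short genes such as Sprr and Lce depend on the effective length used, which is not given in the sources used here. Total depth is not in the table. A transcript of 1 kb with 3 fragments would stand at 0.172 to 0.235 FPKM. Genes reaching 1 FPKM in 2 or more libraries (13027 of 24441) were fitted on log2(FPKM + 1) with limma 3.58.1 in R 4.3.3 with genotype as the only term, a mean-variance trend and Benjamini-Hochberg adjustment. The variance of each gene was moderated by empirical Bayes over all genes fitted, which enters each SE and p-value of limma. The scale understates the change of low genes. Tables were made with Python 3.11.15 and pandas 2.3.3. The fit was tested on simulated data. Every member of the gene rule was accounted for, with fit statistics for Lor and for the genes whose groups did not overlap. The members and gene lists were chosen with earlier results of these data known. Alternatives were other pseudocounts, filters and scalings, a replicate block, a fit without the trend and leaving out each library.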

Additional observations from a re-analysis of the deposited data

How the results depend on the processing

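The log2 fold changes of Sprr2f, Sprr2k, Sprr2j-ps, Tgm5 and Flg2 kept their sign under the alternatives run, although centring on the whole-epidermis list brought Flg2 to 0.17 and Tgm5 to 0.22 with overlapping groups, and that of Lor kept it except without KO 2 (it ran from -2.80 without KO 1 to 1.39 without KO 2). The size depended on the pseudocount in low genes. With 0.1 in place of 1, Sprr2k moved from -0.79 to -1.49 and Sprr2j-ps from -1.35 to -2.96. Median-ratio and upper-quartile scaling each put 5 genes below both WT libraries in place of 3 (26.9% and 25.5% of all genes tested), with median log2 fold changes of -0.0017 and 0.028. They changed the sign of 6 and 4 of the 46 genes. Centred on the whole-epidermis list, which lowered the median of all genes to -1.29, 7886 genes of the table and 25 of the 46 passed the threshold, 0 were higher and 29 lower at the unadjusted threshold (68.1% of all genes lower), 0 lay above and 27 below (89.8% of all genes below), and the median was -1.29. At the unadjusted threshold, 0 of the 46 genes were higher without a filter (3.43% of all genes). With a pseudocount of 0.1, without a filter or with a filter on the mean, 1 was lower (4.43%, 2.21% and 4.09% of all genes). Leaving out each library gave 0 to 2058 genes past the threshold, 0 to 14 of the 46, 0 to 28 higher (28 without KO 2, with 5.63% of all genes) and 0 to 21 lower (21 without KO 1, with 12.3% of all genes) at the unadjusted threshold, 2 to 38 above (38 without KO 2, with 46.5%) and 3 to 35 below (35 without KO 1, with 37%) without overlap, and medians from -0.86 to 1.22. Without WT 1, 11 of the 46 genes had both GSDMD KO libraries above WT 2 (50.3% of all genes tested), and without WT 2, 8 had both below WT 1 (29.4%). The cause was not tested.

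Same-numbered libraries share only a number, with a correlation of their deviations of -0.202 over 13027 genes. The replicate block gave 0 calls at the adjusted threshold, and 5 of the 46 genes higher and 4 lower at the unadjusted one, against 6.96% and 5.27% of all genes tested. A replicate block with crossed numbers, chosen after the data had been seen, gave 0 calls, and 1 gene higher and 1 lower, against 6.29% and 5.23% of all genes tested. With 2 libraries a group, and depth not in the table, small differences were not detectable, and large ones could also miss the adjusted threshold. Elovl3 of the sebaceous list, for example, had a log2 fold change of 4.15 with adjusted p = 0.248 in limma.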
